A study of Homo sapiens with 18 samples.

Results

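The 54 ZNF zinc finger genes described here were taken by name from a table of 3074 genes. A gene was included when its symbol began with ZNF and a digit and held no hyphen, so antisense transcripts such as ZNF503-AS2 were left out. They were measured by sequencing of poly(A) RNA in SJSA-1 cells, an osteosarcoma line of human origin known for an amplified MDM2 gene. Each of 6 groups had 3 libraries, and nothing in the labels says whether these came from separate cultures, so p values measure the spread between libraries. In the NCS+MI-1061, NCS+MD-224 and NCS groups, cells received neocarzinostatin (NCS), which breaks DNA, at 1 µg/mL for 72 h. MI-1061 (an MDM2 inhibitor), MD-224 (an MDM2 degrader) or DMSO was added for the last 24 h, both compounds at 1 µM. The sample titles name MI-1061, which is followed here, whereas the treatment protocol writes MI-1016. The MI-1061, MD-224 and DMSO groups were treated in the same way with DMSO in place of NCS. All 6 groups share the same cell line, and the p53-linked results below therefore come from 1 MDM2-amplified line.

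MDM2 is the ubiquitin ligase that binds p53 and marks it for degradation, so blocking or degrading MDM2 raises p53 and the transcription of p53 target genes. C2H2 zinc finger proteins are the largest class of human transcription factors. Many carry a KRAB domain that recruits the corepressor TRIM28, and their genes lie in tandem clusters, above all on chromosome 19. A few members have other known roles: ZNF385A is a target and partner of p53, ZNF366 a corepressor described in dendritic cells, ZNF622 a relative of the yeast ribosome maturation factor Rei1, and ZNF451 a SUMO ligase that acts in repair of topoisomerase lesions.

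In RefSeq (GRCh38.p14) 53 of the 54 symbols matched a gene symbol and 1, ZNF812, matched a synonym (ZNF812P). Of the 54, 51 were protein-coding and 3 were pseudogenes (ZNF767P, ZNF812 and ZNF818P). Chromosome 19 held 29 of the 54 (53.7%), against 6.97% of the 2998 listed genes with a RefSeq match. The share was close to that of all protein-coding ZNF genes in RefSeq, of which 246 of 510 (48.2%) lie on chromosome 19. With neighbours joined over gaps of up to 500000 bases, 22 of the 29 fell into 3 stretches of chromosome 19. These were ZNF699, ZNF561, ZNF812 and ZNF846 at chr19:9291140-9786160, 6 genes with ZNF441 and ZNF491 among them at chr19:11767000-12633834, and 12 genes with ZNF432, ZNF610, ZNF468 and ZNF818P among them at chr19:51964340-53458261.

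Promoters, 250 bases before to 50 bases after the start, were in the RefSeq table for 34 members. Motifs were searched on both strands. CCAAT was found in 17 of the 34 (50%), against 35.3% of 2274 listed genes and 35.7% of all 27305 promoters. TATAAA was found in none of the 34, against 9.28% of listed genes and 12% of all promoters. A p53 half-site was found in 2 of the 34 (ZNF441 and ZNF275), 5.88% against 6.73% of listed genes and 6.54% of all promoters, and 2 half-sites with 0 to 13 bases between them in none of the 34. A further motif, ACTACA followed by any 2 bases and TCC, part of the binding site of the factor ZNF143, was found in 2 members, ZNF451 and ZNF37A, the same share of 5.88% against 2.24% of listed genes and 2.09% of all promoters. These matches describe the letters in the windows and are no evidence of binding. Below are 3 promoters, chosen because the genes recur in the results: ZNF79 (plus strand, chr9:127424132-127424431, with its CCAAT in capitals), ZNF37A (plus strand, chr10:38094087-38094386, with its 2 matches to the ACTACA motif, both read on the opposite strand, in capitals) and ZNF441 (plus strand, chr19:11766750-11767049, with its p53 half-site in capitals), all in GRCh38.p14.
ZNF79 promoter: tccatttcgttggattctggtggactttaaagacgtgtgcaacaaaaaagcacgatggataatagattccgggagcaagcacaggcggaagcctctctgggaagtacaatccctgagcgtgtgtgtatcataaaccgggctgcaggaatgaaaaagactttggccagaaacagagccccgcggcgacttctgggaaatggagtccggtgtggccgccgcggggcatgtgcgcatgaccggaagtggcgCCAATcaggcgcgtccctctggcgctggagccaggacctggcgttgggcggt
ZNF37A promoter: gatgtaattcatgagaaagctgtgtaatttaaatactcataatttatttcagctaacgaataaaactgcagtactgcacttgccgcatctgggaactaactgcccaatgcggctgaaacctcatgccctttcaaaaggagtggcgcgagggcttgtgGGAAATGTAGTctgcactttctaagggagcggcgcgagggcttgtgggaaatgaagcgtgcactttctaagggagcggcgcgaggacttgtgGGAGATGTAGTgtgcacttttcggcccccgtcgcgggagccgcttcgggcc
ZNF441 promoter: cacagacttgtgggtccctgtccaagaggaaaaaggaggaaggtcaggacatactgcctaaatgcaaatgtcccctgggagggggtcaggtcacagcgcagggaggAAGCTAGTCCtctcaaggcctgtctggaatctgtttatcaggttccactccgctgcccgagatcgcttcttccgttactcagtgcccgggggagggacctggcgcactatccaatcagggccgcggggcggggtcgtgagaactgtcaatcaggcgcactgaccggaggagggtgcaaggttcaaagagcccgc

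Values are normalized counts as deposited by the authors, that is, reads divided by 1 factor per library. Reads could be recovered from the step between values: 4490870 to 21816350 per library over the listed genes and 22102 to 102203 over the 54 members. Levels of different genes were compared only per kilobase of exon (GENCODE 29). Over all libraries ZNF622 (2449 normalized counts per kilobase), ZNF385A (903) and ZNF469 (477) had the highest levels and ZNF665 (2.69), ZNF383 (5.96) and ZNF610 (6.09) the lowest. All 54 members passed the filter of at least 10 normalized counts in at least 3 libraries, as did 3073 of the 3074 listed genes. The counting could share reads between near-identical genes. Stretches of 100 bases were searched in genes that do not overlap the member. None was shared in 41 members, and 41.1% of the stretches of ZNF658 also occurred in ZNF658B. ZNF818P had no match in GENCODE 29 and was not searched. Whether counting used strand is not given in the sources used here. This touches, among others, ZNF337 (73.8% of its exonic bases overlapped by the antisense ZNF337-AS1) and ZNF219 (19.1% by TMEM253). Overlaps on the same strand remain with any strand setting, and the search for shared stretches left them out. Another gene on the same strand overlapped 65.8% of the exonic bases of ZNF564. The share was 53.03% for ZNF468 (by ZNF320) and 25.1% for ZNF324 (by ZNF446). The part of these overlaps in the values of the members was not tested.

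As a check of the treatments, MDM2, the compounds' target and itself a p53 target gene, had 2373750 to 2520810 normalized counts in NCS+MI-1061, 697739 to 961730 in NCS+MD-224, 177192 to 188863 in NCS, 1189840 to 1828070 in MI-1061, 366311 to 481272 in MD-224 and 114681 to 163950 in DMSO. Markers of other cells moved with the treatments too. Of 4 haematopoietic markers ITGAM, CD68 and LAPTM5 were listed and summed to 4852 to 4962 normalized counts in NCS+MI-1061, 3418 to 4506 in NCS+MD-224, 2302 to 2498 in NCS, 2412 to 3052 in MI-1061, 783 to 1085 in MD-224 and 440 to 1111 in DMSO. Within that sum LAPTM5 had 1450 to 1964 with MI-1061, against 57.3 to 149 with DMSO. ITGAM had 219 to 369 against 6.14 to 35.6, while CD68 overlapped at 430 to 811 against 376 to 1023. VWF, the 1 listed of 3 endothelial markers, had 1513 to 2535 in MI-1061 and at most 270 in any other group. Of 9 osteoblast and osteosarcoma markers COL1A2, SPARC and SPP1 were listed, summing to 81995 to 136594 in MI-1061, to at least 107846 in each other treated library and to 70302 to 87985 in DMSO. Of these SPARC had 73851 to 121970 in MI-1061 and 56284 to 67723 in DMSO. COL1A2 (5370 to 13462 and 9754 to 19989) and SPP1 (1163 to 2774 and 344 to 1362) overlapped between these 2 groups. PTPRC, PECAM1, CDH5 and the 4 epithelial markers were not among the listed genes. The part of these markers in the ZNF results was not tested, and in bulk RNA fewer cells of a kind and less RNA per cell cannot be told apart.

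Every gene in the table had a mean at least 1.75-fold higher in NCS+MI-1061 than in DMSO, so that contrast is only described. For the 54 members the ratio of the 2 means ran from 1.77 (lowest) to 32.9 in ZNF812, with a median of 2.95, against a median of 3 over the 3074 genes. The members' mean was highest in NCS+MI-1061 for 42 genes and in MI-1061 for the other 12. It was lowest in DMSO for 36, in MD-224 for 10, in MI-1061 for 4, in NCS for 3 and in NCS+MD-224 for 1. By the listing, DMSO cannot be the highest group of a gene, nor NCS+MI-1061 the lowest. The same counts were not made over all listed genes. The members made up 0.443% of the normalized counts of the listed genes in NCS+MI-1061, 0.394% in NCS+MD-224, 0.429% in NCS, 0.437% in MI-1061, 0.441% in MD-224 and 0.490% in DMSO (means of 3 libraries, SD 0.00288 to 0.0271 percentage points). The listing bears on every comparison that uses DMSO or NCS+MI-1061 libraries, while MD-224 against MI-1061 and NCS+MD-224 against NCS use neither.

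**Figure D1:**
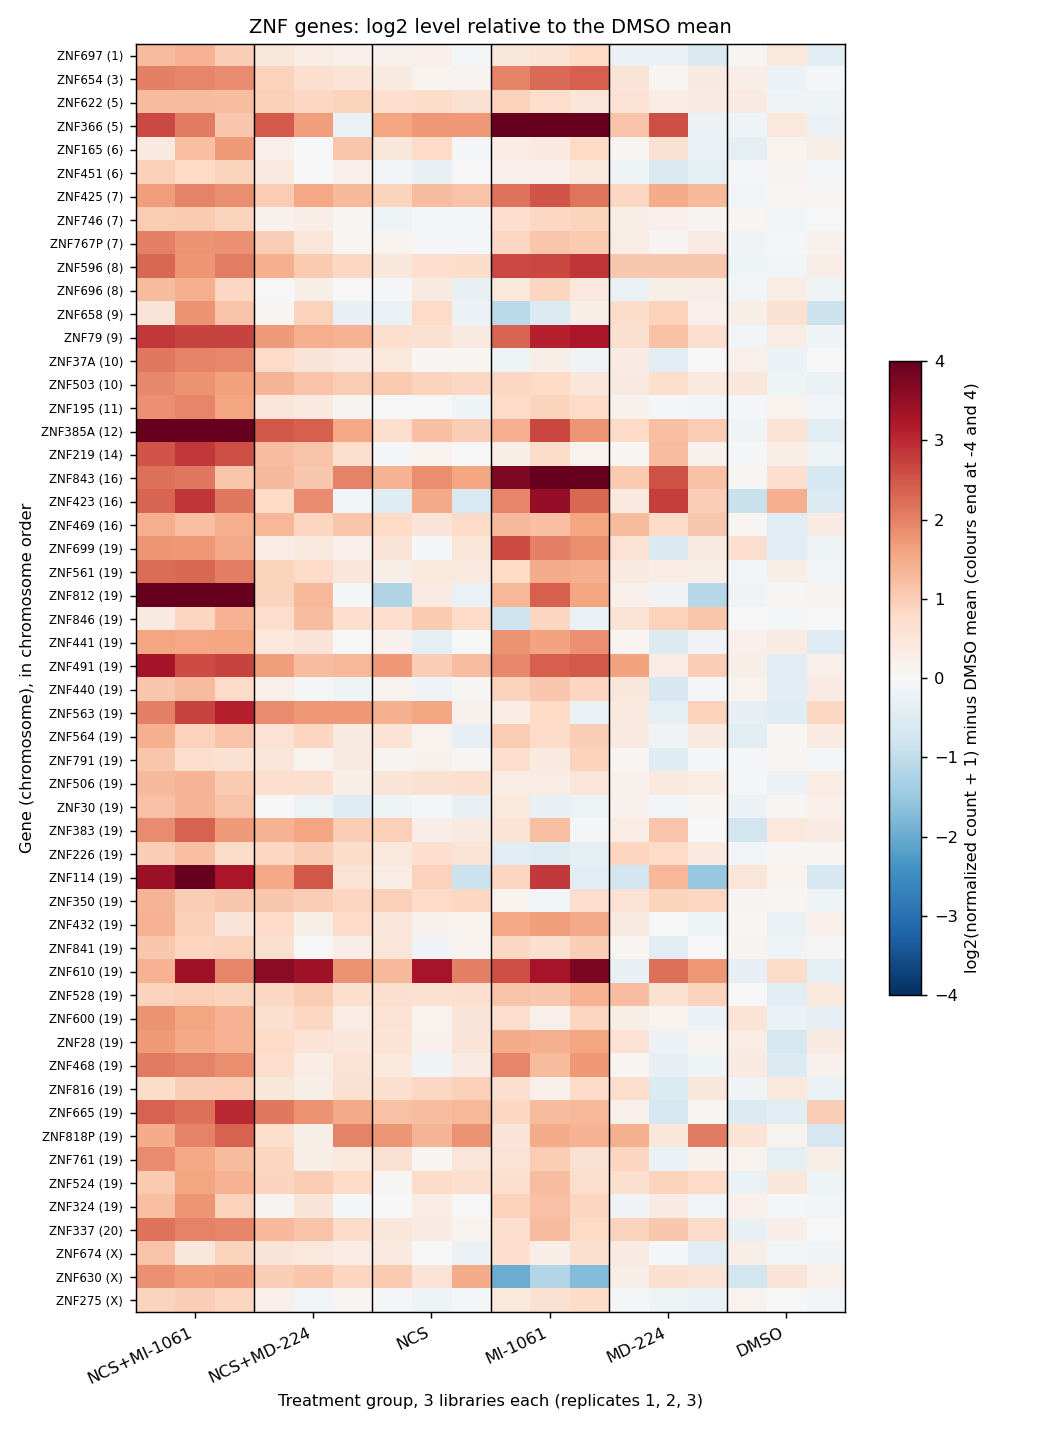
Level of the 54 ZNF genes in 18 libraries, as log2(normalized count + 1) minus the mean of the 3 DMSO libraries (colour), with genes in chromosome order and 3 libraries per group. The columns of NCS+MI-1061 are red in nearly all rows, ZNF366 and ZNF843 are darkest in MI-1061, and ZNF630 is blue in MI-1061.

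Comparisons used limma on log2(normalized count + 1), with all 6 groups in 1 fit and Benjamini-Hochberg adjustment over the 3073 tested genes; a gene was called when the adjusted p was under 0.05. Folds are back-transformed from the log2 estimate and carry 95% intervals. Because the table holds genes picked for being higher, a second scaling was run in which TMM, a trimmed mean of the listed genes, sets the libraries level. It moved the median log2 change of all tested genes by -0.60 in NCS against DMSO, -0.98 in MI-1061 against DMSO, -0.49 in MD-224 against DMSO, -0.99 in NCS+MI-1061 against NCS, -0.32 in NCS+MD-224 against NCS, 0.49 in MD-224 against MI-1061 and 0.66 in NCS+MD-224 against NCS+MI-1061. TMM calls thus describe a gene relative to the typical listed gene.

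With MI-1061 alone, ZNF genes moved about as often as the other listed genes. Against DMSO, 36 of the 54 members rose and 2 fell, with 67.6% and 4.46% of all tested genes called in those directions, while TMM scaling gave 13 higher and 11 lower (30.6% and 30.1% of all tested genes with that scaling). The members' median fold was 1.85, against 1.99 over all tested genes. The 13 were ZNF366, ZNF843, ZNF610, ZNF79, ZNF596, ZNF491, ZNF425, ZNF654, ZNF699, ZNF385A, ZNF441, ZNF468 and ZNF432, all of them also among the 36.

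ZNF366, the dendritic cell corepressor, was at 167, 331 and 200 normalized counts (130, 276 and 130 reads) with MI-1061, against 2.19, 3.84 and 2.05 (2, 4 and 2 reads) with DMSO. All 3 MI-1061 libraries were far above every other library of the table, in which the gene did not pass 21.4. The fold of 62.0 (23.1 to 167, adjusted p = 6.08e-07) rests on few reads in DMSO. ZNF843 had 152, 315 and 326 normalized counts with MI-1061, against 10.9, 17.3 and 6.14 with DMSO, a fold of 21.6 (10.9 to 42.8). ZNF596 had 776, 795 and 905 against 109, 115 and 149 with DMSO, a fold of 6.62 (4.96 to 8.83). Neither gene had overlapping groups. ZNF425 rose 4.83-fold and ZNF654 4.64-fold. ZNF654 had 4005, 4826 and 5229 normalized counts with MI-1061, against 1204, 858 and 976 with DMSO. ZNF366 and ZNF654 were picked out after their values were seen.

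The 2 that fell with MI-1061 were ZNF630 and ZNF226. ZNF630, on the X chromosome, had 7.72, 14.4 and 9.22 normalized counts with MI-1061, against 19.7, 48.1 and 38.9 with DMSO, a fold of 0.324 (0.197 to 0.532, adjusted p = 0.000382). ZNF226 had 273, 261 and 280 against 337, 381 and 380, a fold of 0.743 (adjusted p = 0.0271). The groups did not overlap in either gene. The call of ZNF226 was lost without MI-1061 replicate 2 (adjusted p = 0.0638), DMSO replicate 2 (0.0654) or DMSO replicate 3 (0.0688).

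With MD-224 alone, against DMSO, 15 members rose and 1 fell (39.9% and 2.8% of all tested genes), with a median fold of 1.21 against 1.40 over all genes, while TMM scaling gave 3 higher (ZNF425, ZNF596 and ZNF469) and 8 lower (10.6% and 11.6% of all tested genes). ZNF425 had 290, 464 and 404 normalized counts with MD-224, against 151, 171 and 169 with DMSO, a fold of 2.31 (1.73 to 3.10, adjusted p = 0.000175). ZNF596 had 260, 263 and 264 against 109, 115 and 149, a fold of 2.12. All MD-224 libraries lay above all DMSO libraries in both genes. ZNF843 rose 3.01-fold and ZNF385A 2.00-fold, calls that were lost without MD-224 replicate 2 (adjusted p = 0.0728 and 0.0569) or DMSO replicate 3 (0.0618 and 0.0802). Without DMSO replicate 3 the count that rose was 9. The 1 that fell, ZNF451, is given with the repair genes.

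NCS alone raised 19 members and lowered none by limma, with 54% and 1.3% of all tested genes called, a median fold of 1.28 against 1.58 over all genes. With TMM scaling none rose and 9 fell, where 14.8% and 15.2% of all tested genes were called. At an unadjusted p under 0.05 the count that fell was also 0, and edgeR called 17 higher and 0 lower. Every gene of the table was lower in DMSO than in NCS+MI-1061, which bears on this direction. ZNF425 had 303, 397 and 358 normalized counts with NCS, against 151, 171 and 169 with DMSO, a fold of 2.14 (1.6 to 2.87, adjusted p = 0.000283). ZNF491 had 81.4, 48.2 and 58.2 against 28.5, 17.3 and 27.6, a fold of 2.5. The libraries of NCS lay above those of DMSO in both. ZNF843 rose 3.06-fold, with 29.4, 41.1 and 33.9 against 10.9, 17.3 and 6.14 normalized counts. ZNF630, lower with MI-1061, rose 2.03-fold with NCS, at 69.7, 49.0 and 95.2 against 19.7, 48.1 and 38.9 with DMSO. That call was lost without NCS replicate 3 (adjusted p = 0.0930) or DMSO replicate 1 (0.105), and that of ZNF385A (1.95-fold) without NCS replicate 2 (0.0608) or DMSO replicate 3 (0.0798).

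In NCS+MI-1061 against NCS, 43 of the 54 rose and none fell (70.5% and 0.748% of all tested genes), with a median fold of 2.14 against 1.96 over all genes, while TMM scaling gave 13 higher and 6 lower (23.9% and 19.3% of all tested genes). No member fell at an unadjusted p under 0.05, as all 54 estimates were above 0, and edgeR called 44 higher and 0 lower. Every gene of the table was higher in NCS+MI-1061 than in DMSO, which bears on this direction. The share of all tested genes with an estimate above 0 was not computed. The 13 under TMM scaling were ZNF812, ZNF385A, ZNF114, ZNF219, ZNF79, ZNF767P, ZNF561, ZNF195, ZNF37A, ZNF468, ZNF654, ZNF337 and ZNF441, and all were among the 43.

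ZNF812, a transcribed pseudogene next to ZNF561, had 302, 831 and 343 normalized counts with NCS+MI-1061, against 5.89, 19 and 12.1 with NCS, a fold of 36.4 (17.5 to 75.5, adjusted p = 8.09e-08). ZNF114 had 753, 1304 and 660 against 82.4, 129 and 36.4, a fold of 11.7 (3.82 to 35.8). In both genes replicate 2 was the highest library of NCS+MI-1061 and of NCS, and the groups did not overlap. ZNF37A, named after its values were seen, had 1590, 1475 and 1402 normalized counts against 495, 394 and 392, a fold of 3.50 (2.61 to 4.68). Its promoter, printed above, holds 2 matches to the ACTACA motif.

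In NCS+MD-224 against NCS, 5 of 54 rose and none fell (15.1% and 0% of all tested genes), with a median fold of 1.20 against 1.23 over all genes, and with TMM scaling no member was called (3.77% of all tested genes higher and 0.195% lower). At an unadjusted p under 0.05 the count that fell was 0, and edgeR called 5 higher and 0 lower. The 5 were ZNF385A (2.26-fold), ZNF219 (1.98-fold), ZNF79 (1.95-fold), ZNF337 (1.69-fold) and ZNF654 (1.41-fold). None of the 5 was called without NCS+MD-224 replicate 1, with adjusted p of 0.114, 0.0930, 0.0576, 0.0686 and 0.211 in that order. The count was 3 without NCS+MD-224 replicate 2 or NCS replicate 1, 2 without NCS replicate 3, and 8 with the replicate number as a block. Singly, ZNF385A was lost without NCS+MD-224 replicate 2 or NCS replicates 1 or 3, ZNF219 without NCS replicates 1 or 3, and ZNF654 without NCS+MD-224 replicate 2 or NCS replicates 2 or 3 (adjusted p = 0.0501 to 0.126).

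**Figure D2:**
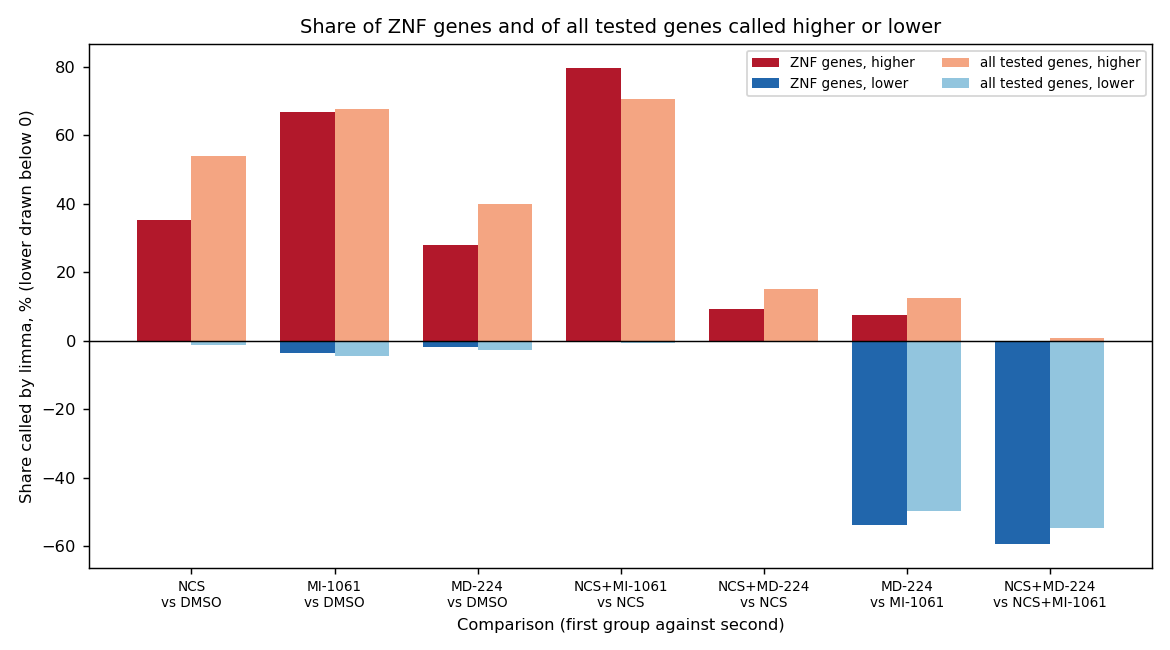
Share of the 54 ZNF genes (dark bars) and of all 3073 tested genes (pale bars) called higher (above 0) or lower (below 0) by limma in each of 7 comparisons, in percent. The ZNF share called higher is above that of all genes in NCS+MI-1061 against NCS (79.6% against 70.5%) and below it in the other 6 comparisons.

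The 2 MDM2 compounds were compared directly at 1 µM and 24 h, in 2 pairs of groups. Without NCS, 29 of 54 members were lower and 4 higher with MD-224 than with MI-1061 (49.8% and 12.4% of all tested genes), with a median fold of 0.599 against 0.671 over all genes. With TMM scaling 16 were lower, all among the 29, and 8 higher, including the 4 (30.6% and 27.6% of all tested genes). ZNF366 had 6.88, 20.6 and 2.09 normalized counts with MD-224, against 167, 331 and 200 with MI-1061, a fold of 0.0361 (0.0134 to 0.0970). The log2 difference of -4.79 was -5.50 without MD-224 replicate 2 and -4.10 without MD-224 replicate 3. ZNF843 (0.139-fold), ZNF812 (0.232), ZNF79 (0.237), ZNF699 (0.244), ZNF610 (0.251) and ZNF441 (0.261) followed, with the call of ZNF610 lost without MI-1061 replicate 2 (adjusted p = 0.0519), MI-1061 replicate 3 (0.0820) or MD-224 replicate 1 (0.138). ZNF441 had 241, 158 and 210 normalized counts with MD-224, against 796, 698 and 819 with MI-1061, with no overlap, and 265, 286 and 160 with DMSO.

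The 4 members higher with MD-224 than with MI-1061 were ZNF630 (4.26-fold), ZNF226 (2.14-fold), ZNF846 (1.91-fold) and ZNF350 (1.44-fold). ZNF630 had 39.0, 52.8 and 48.2 normalized counts with MD-224, against 7.72, 14.4 and 9.22 with MI-1061. ZNF226 had 659, 621 and 481 against 273, 261 and 280. Neither pair of groups overlapped. The count of 4 was 2 without MD-224 replicate 2 or MI-1061 replicate 1, and ZNF846 and ZNF350 were named because they completed it. For the other 21 members no difference was called without the replicate block; with it, which fits the pairing found for these libraries, 5 members were higher and 34 lower, and ZNF469 was among those called (adjusted p = 0.0177). In the fit without the block the fold of MD-224 over MI-1061 lay between 0.771 and 1.30 for ZNF337, 0.747 and 1.57 for ZNF219, 0.612 and 1.04 for ZNF469 and 0.125 and 1.17 for ZNF114. With TMM scaling ZNF337 and ZNF219 were called higher with MD-224 (log2 0.50 and 0.61).

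After NCS, 32 of 54 members were lower with MD-224 than with MI-1061 and none was higher (54.7% and 0.748% of all tested genes), with a median fold of 0.547 against 0.629 over all genes. With TMM scaling 10 were lower, all among the 32, and 1 (ZNF226) was higher (17.9% and 11.6% of all tested genes). At an unadjusted p under 0.05 the count that was higher was 0, and edgeR called 33 lower and 0 higher. The listing by NCS+MI-1061 over DMSO bears on this direction as well. ZNF812 had 28.5, 38.6 and 14.2 normalized counts with NCS+MD-224, against 302, 831 and 343 with NCS+MI-1061, a fold of 0.0589 (0.0284 to 0.122, adjusted p = 3.79e-06). ZNF561 had 967, 899 and 740 against 2492, 2561 and 2159, a fold of 0.360 (0.279 to 0.465). The groups were apart in both genes. The difference in ZNF114 (0.228-fold, adjusted p = 0.0252) was lost without NCS+MI-1061 replicate 2 (0.0907), NCS+MD-224 replicate 1 (0.0520) or NCS+MD-224 replicate 3 (0.116). The 22 uncalled members include ZNF469, with an interval of 0.631 to 1.08.

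Some members answered MI-1061 differently with and without NCS. The difference of the 2 responses was called for 19 of 54: 11 responded more after NCS and 8 less (23.5% and 20.8% of all tested genes), and with TMM scaling 13 and 8, the 11 and the 8 among them (23.7% and 21.3% of all tested genes). Separately, 32 members rose with MI-1061 in both settings, which is 88.9% of the 36 that rose without NCS and 74.4% of the 43 that rose after it. Of all 54 members 79.6% rose after NCS and 66.7% without, so a large overlap is given by these counts. The share of all tested genes that rose in both settings was not computed. These comparisons share no libraries, but the listing uses a group of each. For MD-224 the difference was called for 2 of 54, ZNF451 (more after NCS) and ZNF425 (less), where 4.07% and 7.19% of all tested genes were called. With TMM scaling ZNF451 alone was called (6.54% of all tested genes more and 4.13% less). Both calls were lost without any 1 of NCS+MD-224 replicates 1 and 3, NCS replicate 2 and MD-224 replicates 2 and 3 (adjusted p = 0.0523 to 0.0826), and that of ZNF425 also without NCS replicate 3 (0.0702) or DMSO replicate 1 (0.0592). Neither was called when only the groups concerned were fitted.

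ZNF366, ZNF843 and ZNF610 answered MI-1061 without NCS and were near their NCS level after it. ZNF366 had 21.4, 14.2 and 6.66 normalized counts with NCS+MI-1061, against 9.81, 11.1 and 10.9 with NCS, and the response after NCS was 0.0192 times that without (log2 difference -5.70, SE 0.96, adjusted p = 0.000168). ZNF843 had 52.4, 49.0 and 24.0 with NCS+MI-1061, against 29.4, 41.1 and 33.9 with NCS (log2 difference -4.24, SE 0.66). The libraries of the 2 groups overlapped in both genes. ZNF425 and ZNF596 rose in both settings, but less after NCS: 1.67-fold after and 4.83-fold without for ZNF425, and 2.66-fold after and 6.62-fold without for ZNF596.

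ZNF37A, ZNF30 and ZNF219 showed the opposite. With TMM scaling these genes were called lower with MI-1061 alone, as were 30.1% of all tested genes. ZNF30 was at 0.988-fold with MI-1061 alone and rose 2.64-fold after NCS (log2 difference of the responses 1.42, SE 0.34, adjusted p = 0.00293). ZNF37A had 319, 437 and 335 normalized counts with MI-1061, against 430, 316 and 373 with DMSO, and the groups overlapped, whereas after NCS its MI-1061 response was 3.50-fold (log2 difference of the responses 1.85, SE 0.28, adjusted p = 7.76e-05). ZNF812 rose 36.4-fold after NCS and 3.37-fold without (log2 difference 3.43, SE 0.71). ZNF630, lowered by MI-1061 alone, had 120, 109 and 112 with NCS+MI-1061, against 69.7, 49.0 and 95.2 with NCS, a fold of 1.64 that was not called (log2 difference of the responses 2.34, SE 0.48). ZNF226 fell with MI-1061 alone and rose 1.36-fold after NCS, where TMM scaling called it lower.

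**Figure D3:**
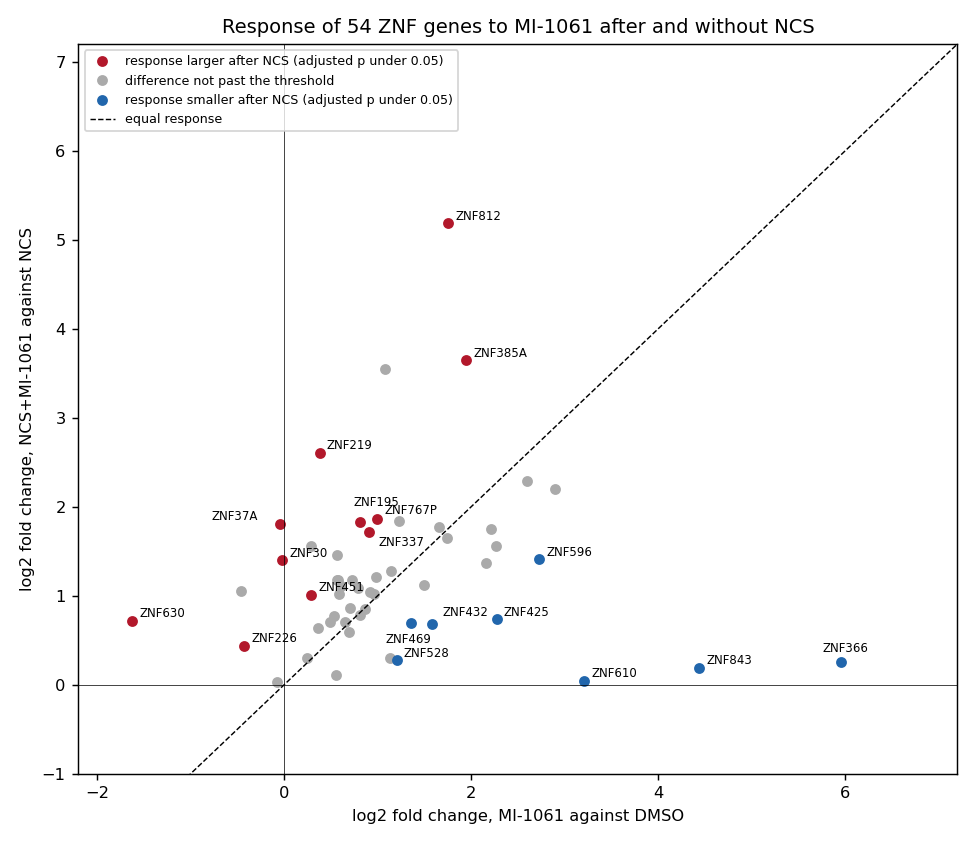
Log2 fold change of each of the 54 ZNF genes with MI-1061, after NCS (vertical axis, NCS+MI-1061 against NCS) and without NCS (horizontal axis, MI-1061 against DMSO), with the dashed line at equal responses. Red points are the 11 genes with a larger and blue points the 8 with a smaller response after NCS, led by ZNF812 above the line and ZNF366 at the far right.

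Of 6 ZNF genes reported among p53 targets, on a list chosen with earlier results of these data known, 5 were in the table (ZNF79, ZNF219, ZNF337, ZNF385A and ZNF561). All 5 rose in NCS+MI-1061 against NCS, 4 in NCS+MD-224 against NCS, 4 in MI-1061 against DMSO, 3 in MD-224 against DMSO and 2 in NCS against DMSO. Of all tested genes 70.5%, 15.1%, 67.6%, 39.9% and 54% rose in those comparisons. With the deposited scaling the share of the 5 was below that of all tested genes in NCS against DMSO and above it in the others. The gap was widest in NCS+MD-224 against NCS, where all 4 calls were lost without NCS+MD-224 replicate 1. With TMM scaling all 5 rose in NCS+MI-1061 against NCS (23.9% of all tested genes). In MI-1061 against DMSO it called ZNF79 and ZNF385A higher and ZNF219 lower (30.6% and 30.1%). It called none of the 5 in the remaining comparisons named here. As the list was chosen with results known, these shares are no test of it. Median folds of the 5 genes were 4.59, 1.95, 2.35, 1.77 and 1.27 in the same order of comparisons. They were 2.14, 1.20, 1.85, 1.21 and 1.28 over the 54 members and 1.96, 1.23, 1.99, 1.40 and 1.58 over all tested genes.

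ZNF385A, which binds p53 and shifts its choice of targets, had 9684, 14410 and 9196 normalized counts with NCS+MI-1061, 2489, 2348 and 1296 with NCS+MD-224 and 730, 1019 and 880 with NCS. It had 1192, 2810 and 1516 with MI-1061, 771, 1028 and 895 with MD-224, and 406, 654 and 330 with DMSO. The 3 NCS+MI-1061 libraries lay above all 15 others, and the DMSO libraries were the 3 lowest. All NCS+MI-1061 libraries lay above all DMSO libraries in 3028 of the 3074 listed genes too. The response to MI-1061 was 12.5-fold after NCS (7.91 to 19.8, adjusted p = 2.07e-08) and 3.86-fold without, and the difference of the 2 was called (log2 1.70, SE 0.44, adjusted p = 0.00529). NCS+MD-224 was at 0.181 times NCS+MI-1061. Without NCS, MD-224 was at 0.519 times MI-1061, a call lost without MI-1061 replicate 2 (adjusted p = 0.106) or MD-224 replicate 1 (0.0512).

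ZNF79 had 1207, 1100 and 1098 normalized counts with NCS+MI-1061, 550, 458 and 439 with NCS+MD-224 and 270, 254 and 217 with NCS. It had 849, 1447 and 1632 with MI-1061, 260, 379 and 267 with MD-224 and 154, 206 and 149 with DMSO. Both MI-1061 groups were above all other libraries and overlapped each other. The MI-1061 response was 7.47-fold without NCS (5.36 to 10.4, adjusted p = 6.30e-09) and 4.59-fold after it, a difference that was not called (adjusted p = 0.0849). Its rise with NCS alone (1.46-fold, adjusted p = 0.0492) was lost without any 1 of 5 libraries (NCS replicates 1, 2 and 3, and DMSO replicates 1 and 3, adjusted p = 0.0533 to 0.142), and with TMM scaling its sign turned (log2 -0.06).

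ZNF219 had 3960, 4903 and 4173 normalized counts with NCS+MI-1061, 1657, 1528 and 1084 with NCS+MD-224 and 670, 773 and 685 with NCS. It had 832, 1154 and 775 with MI-1061, 730, 1638 and 787 with MD-224 and 672, 831 and 605 with DMSO. The groups without NCS overlapped, with MD-224 replicate 2 at about the level of the NCS+MD-224 libraries. MI-1061 raised it 6.10-fold after NCS (4.22 to 8.84), against 1.30-fold without, which was not called. With TMM scaling the change without NCS was called lower (log2 -0.61). The difference of the responses was 2.23 on the log2 scale (SE 0.36, adjusted p = 0.000119). With the replicate number as a block, MD-224 against DMSO was called (log2 0.49, adjusted p = 0.0302), as it was without MD-224 replicate 1 (0.0445), while with TMM scaling the change was about 0 (log2 -0.001068). TMEM253, which overlaps ZNF219 on the other strand, had 188, 194 and 161 with NCS+MI-1061 and 35.3, 56.9 and 36.4 with NCS.

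ZNF561 and ZNF337 completed the group. ZNF561 rose 3.59-fold in NCS+MI-1061 against NCS and 2.35-fold with MI-1061 alone, with 912, 1463 and 1414 normalized counts against 486, 617 and 485 with DMSO. ZNF337 had 1369, 2077 and 1502 with MI-1061, 1610, 1807 and 1477 with MD-224 and 701, 1045 and 875 with DMSO. Both compounds thus raised it 1.88-fold without NCS, and with TMM scaling the sign with MI-1061 turned (log2 -0.08). After NCS it rose 3.29-fold with MI-1061 and 1.69-fold with MD-224. Its antisense partner ZNF337-AS1 had 15.2 to 66.6 normalized counts in the 18 libraries.

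**Figure D4:**
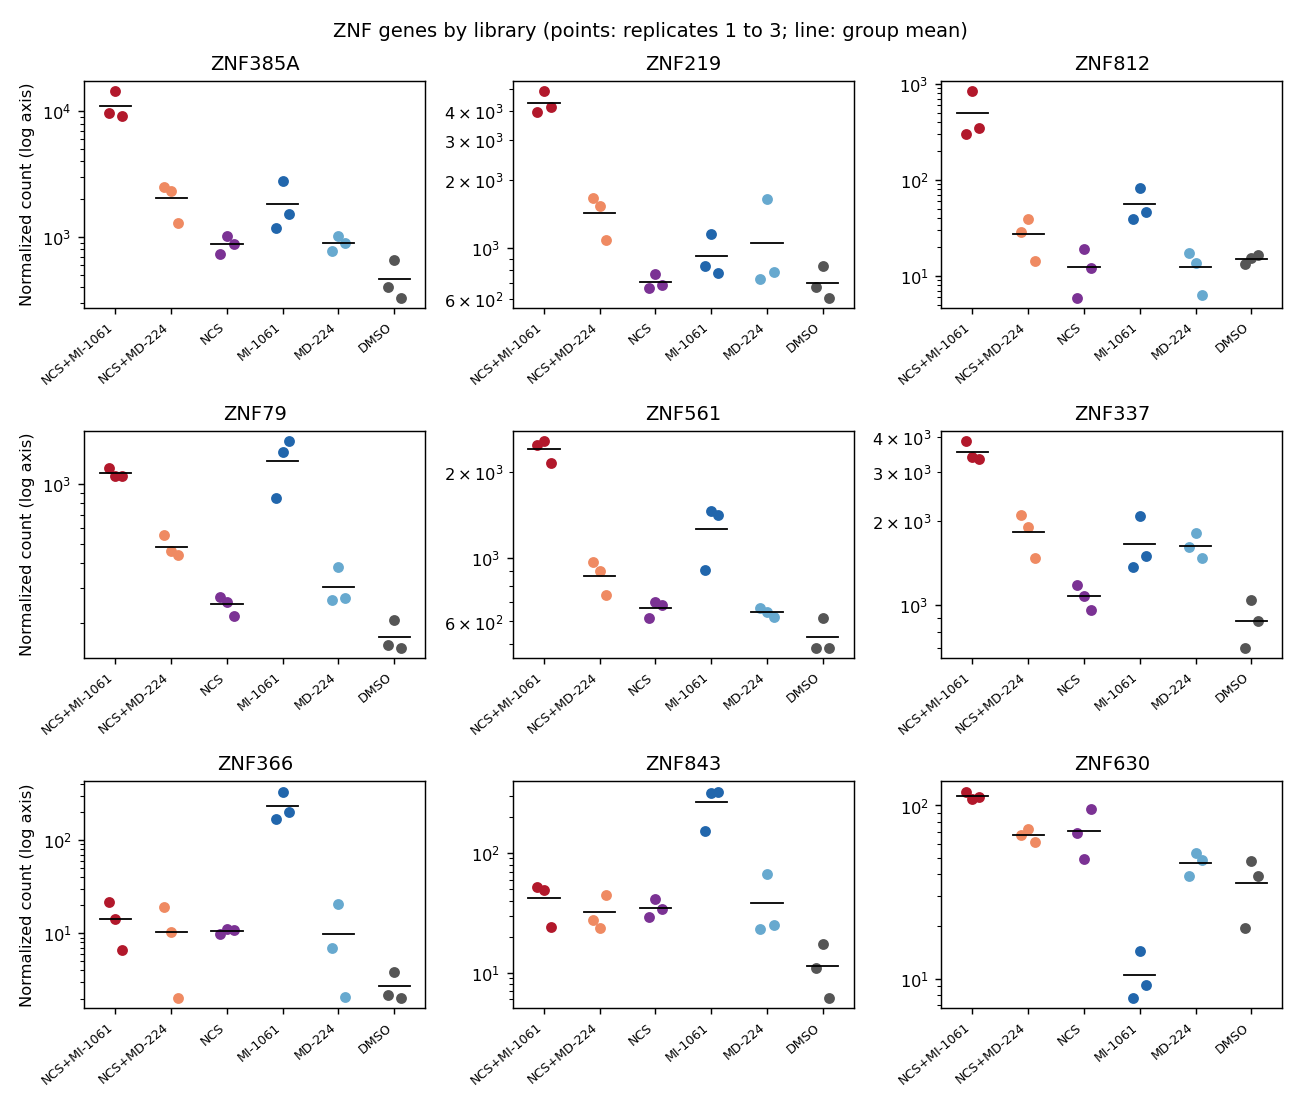
Normalized counts of 9 ZNF genes in each of 18 libraries (points) with the group mean (line), on log axes that differ between panels. ZNF385A, ZNF219 and ZNF812 are highest in NCS+MI-1061, ZNF366 and ZNF843 in MI-1061, and ZNF630 is lowest in MI-1061.

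Members with roles in DNA repair were few: of 9 such genes on the list ZNF432, ZNF451 and ZNF506 were in the table, and all 3 rose in NCS+MI-1061 against NCS, as did 70.5% of all tested genes. ZNF451 had 4544, 4155 and 4382 normalized counts with NCS+MI-1061, against 2192, 1938 and 2386 with NCS, a fold of 2.01 (1.66 to 2.44) with no overlap, and with TMM scaling it stood at the typical change (log2 0.01). With MI-1061 alone its fold was 1.22 (adjusted p = 0.0602), called higher with the replicate block (0.0302) and called lower with TMM scaling (log2 -0.71). With MD-224 alone it was 0.775-fold, with 2119, 1568 and 1853 against 2295, 2541 and 2272, a call lost without MD-224 replicates 2 or 3 or any 1 of the DMSO replicates (adjusted p = 0.0506 to 0.155). ZNF432, which binds poly(ADP-ribose), rose 2.98-fold with MI-1061, at 379, 415 and 377 against 137, 108 and 149 with DMSO, and 1.61-fold after NCS (log2 -0.30 with TMM scaling), the second lost without NCS+MI-1061 replicate 1 (adjusted p = 0.112) or NCS replicates 2 (0.0539) or 3 (0.0579). ZNF506 was the 1 of the 3 that rose with NCS alone (1.52-fold), lost without DMSO replicate 2 (adjusted p = 0.0518), and its change was about 0 with TMM scaling (log2 -0.003385).

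The other role lists had 4 members in the table. ZNF469, which is mutated in brittle cornea syndrome, and ZNF423, a regulator of fat and nerve cell differentiation, were 2 of 5 differentiation genes. ZNF469 had 8724, 7248 and 8722 normalized counts with NCS+MI-1061, 7905, 5770 and 6760 with NCS+MD-224 and 5429, 4501 and 5306 with NCS. It had 7689, 7216 and 9483 with MI-1061, 7584, 5328 and 6640 with MD-224 and 3341, 2353 and 3990 with DMSO. Every library with a treatment lay above the 3 DMSO libraries, an order that was not counted over all listed genes and on which the listing bears. MI-1061 raised it 2.56-fold, MD-224 2.04-fold and NCS 1.6-fold. With the replicate block it was also called in NCS+MD-224 against NCS (log2 0.42, adjusted p = 0.0127), MD-224 against MI-1061 (log2 -0.32, 0.0177) and NCS+MD-224 against NCS+MI-1061 (log2 -0.28, 0.0404), the last 2 of which turned sign with TMM scaling (log2 0.18 and 0.39). The sign in NCS+MI-1061 against NCS (1.62-fold) turned with TMM scaling (log2 -0.30).

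ZNF423 differed more between replicates than between most groups. Replicate 2 was its highest library in 6 of 6 groups, with 426 normalized counts in NCS+MI-1061, 217 in NCS+MD-224, 167 in NCS, 675 in MI-1061, 397 in MD-224 and 158 in DMSO. The DMSO libraries had 30.6, 158 and 38.9. MI-1061 raised it 6.05-fold (2.10 to 17.4), with a log2 change of 2.60 that was 3.32 without DMSO replicate 2, and 4.89-fold after NCS, with 2.29 that was 2.97 without NCS replicate 2. With the replicate block MD-224 against DMSO (adjusted p = 0.00213), MD-224 against MI-1061 (0.00325) and NCS+MD-224 against NCS+MI-1061 (0.000459) were called too. Replicate 2 was also the highest in 6 of 6 groups for ZNF425 and ZNF524, and replicate 1 for ZNF468 and ZNF674.

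ZNF622 was the 1 listed of 9 genes of RNA and protein control and ZNF503, a repressor in development, the 1 of 9 of chromatin and corepressor complexes. ZNF622 had 6180, 6122 and 5993 normalized counts with NCS+MI-1061, 4098, 4218 and 3854 with NCS and 3188, 2308 and 2246 with DMSO. The 3 groups did not overlap. NCS+MI-1061 lay above DMSO without overlap in 53 of the 54 members and in 3028 of the 3074 listed genes. It rose 1.5-fold in NCS+MI-1061 against NCS and 1.62-fold in MI-1061 against DMSO. With TMM scaling the signs turned, to log2 -0.41 (adjusted p = 0.0225) and -0.30 (adjusted p = 0.0681). With the replicate block it was called in MD-224 against MI-1061 (log2 -0.30, adjusted p = 0.0174, and 0.20 with TMM scaling). ZNF503 rose 1.90-fold with NCS, at 1280, 1136 and 1102 against 843, 534 and 516 with DMSO. It rose 1.81-fold in NCS+MI-1061 against NCS and 1.62-fold with MI-1061, and with TMM scaling the signs turned without a call (log2 -0.13 and -0.29, adjusted p = 0.545 and 0.143). None of the 2 genes on the list for small nuclear RNA and RNA polymerase III promoters, and none of the 4 for silencing of repeats, was among the listed genes.

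Calls were also counted by position, on chromosome 19 or elsewhere. In MI-1061 against DMSO 18 of 29 members on chromosome 19 and 18 of 25 elsewhere rose, and in NCS+MI-1061 against NCS 23 of 29 and 20 of 25. Of all tested genes 67.6% and 70.5% rose in these comparisons. In MD-224 against DMSO, 6 of 29 and 9 of 25 rose (39.9% of all tested genes). In NCS+MD-224 against NCS+MI-1061, 15 of 29 and 17 of 25 were lower (54.7%). The MI-1061 response was called larger after NCS in 3 of 29 and 8 of 25, and smaller in 3 and 5. Of all tested genes 23.5% and 20.8% were called in those directions. In NCS+MD-224 against NCS none of the 29 and 5 of the 25 rose (15.1% of all tested genes), and none of the 25 without NCS+MD-224 replicate 1. Within the stretch of 4 genes that holds ZNF561 and ZNF812, 3 rose in NCS+MI-1061 against NCS and the fourth, ZNF846, was at 1.02-fold, with 54.7, 77.5 and 112 normalized counts against 67.7, 89.2 and 73.4. TMM scaling called ZNF846 lower there. In the stretch with ZNF441 all 6 rose in that comparison, and 5 of 6 were lower with MD-224 than with MI-1061 (49.8% of all tested genes). In the stretch of 12, 7 rose with MI-1061 after NCS and 8 without. No test was made between positions.

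The 9 listed genes named ZSCAN, ZBTB or ZFP (ZSCAN25, ZBTB32, ZBTB4, ZBTB43, ZBTB46, ZBTB7B, ZBTB7C, ZFP90 and ZFP92) rose in 8 cases and fell in none in NCS+MI-1061 against NCS, and 8 were lower and none higher in NCS+MD-224 against NCS+MI-1061, where 70.5% of all tested genes rose and 54.7% were lower. ZBTB4, a repressor of methylated DNA, had 3100, 2154 and 2339 normalized counts with MI-1061, against 4486, 3442 and 4587 with DMSO, a fold of 0.604, and was 1 of 2 of the 9 that fell with MI-1061 alone. Of 17 genes of the KRAB corepressor machinery none was among the listed genes, so they are not analysed here. Of the 54 members, 2 (ZNF165 and ZNF658) were called in none of the 7 comparisons, a count that was not made over all tested genes. ZNF165 had 17.5 to 76.0 normalized counts in the 18 libraries, and ZNF658 shares sequence with ZNF658B.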

How the data were processed

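Poly(A) RNA of 18 SJSA-1 libraries was sequenced, and the authors deposited a table of normalized counts (a signal that is never negative) for 3074 genes. The genome build GRCh38 and the tools DESeq2 2.11.40.6, featureCounts 1.6.3 and HISAT2 2.0.5.2 come from the submitters' processing notes; the strand setting is not given in the sources used here. Each value was a whole multiple, within 0.01 reads, of 1 step per library (100% of values), which gave back the reads. Among 159 genes with under 60 reads in every library, 25.2 to 42.1% of the recovered reads were odd numbers, so a recovered read may not be an independent fragment. Depth was 4490870 to 21816350 reads per library over the listed genes.

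Groups were taken from the labels. From the normalized counts, log2(value + 1) was tested with limma 3.58.1 (R 4.3.3, trend, 1 fit of 6 groups, two-sided, Benjamini-Hochberg adjustment) after a filter of at least 10 in at least 3 libraries, for 7 comparisons of groups and 2 differences of responses. A fold change on this scale understates the change of low genes. Alternatives were a pseudocount of 5, no filter, a mean of at least 50, TMM scaling (edgeR 4.0.16), the replicate number as a block, a fit of the compared groups only, each library left out, edgeR and DESeq2 1.42.0 on the recovered reads of the 9 libraries without NCS and, added after the data were seen, edgeR on all 18. The fit was tested on simulated data. Same-numbered libraries deviated together in 6 of 7 comparisons (lowest correlation of deviations 0.102 to 0.215) but not in NCS against DMSO (0.0627).

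Named genes were the listed members of the role lists, per comparison the 5 largest rises and 5 largest falls among called members with a mean of at least 50 and no overlap, per difference of responses the 4 smallest p, and the 3 highest and 3 lowest by mean. Other genes named with values (ZNF366, ZNF654, ZNF37A and those that complete a count, a stretch or a list of calls) were chosen after their values were seen. The members and lists were chosen with earlier results of these data known. Grouping by KRAB box and number of fingers was not run.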

Additional observations from a re-analysis of the deposited data

Results flagged for a closer look

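The response to MI-1061 differed with and without NCS in 19 members, by the test of the difference itself (log2 response after NCS minus log2 response without). It was larger after NCS for ZNF812 (3.431), ZNF630 (2.345), ZNF219 (2.231), ZNF37A (1.847), ZNF385A (1.695), ZNF30 (1.416), ZNF195 (1.016), ZNF226 (0.8683), ZNF767P (0.8674), ZNF337 (0.8071) and ZNF451 (0.7214). It was smaller after NCS for ZNF366 (-5.703), ZNF843 (-4.243), ZNF610 (-3.164), ZNF425 (-1.537), ZNF596 (-1.316), ZNF528 (-0.9279), ZNF432 (-0.8891) and ZNF469 (-0.6597). For MD-224 the difference was called in ZNF451 (0.6868) and ZNF425 (-1.024).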

How the results depend on the processing

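Scaling to the listed genes (TMM) moved the counts of members most. It gave 0 higher and 9 lower in NCS against DMSO, 13 and 11 in MI-1061 against DMSO, 3 and 8 in MD-224 against DMSO, 13 and 6 in NCS+MI-1061 against NCS, 0 higher in NCS+MD-224 against NCS, 8 and 16 in MD-224 against MI-1061, 1 and 10 in NCS+MD-224 against NCS+MI-1061, and 0 lower for the difference of the MD-224 responses. Among named values called under at least 1 of the 2 scalings, it turned the log2 sign in 17: of ZNF79 (-0.06346) and ZNF506 (-0.003385) in NCS against DMSO, of ZNF451 (-0.7053), ZNF506 (-0.6301), ZNF219 (-0.6133), ZNF622 (-0.2959), ZNF503 (-0.2922) and ZNF337 (-0.08174) in MI-1061 against DMSO, of ZNF622 (-0.09688) and ZNF503 (-0.008711) in MD-224 against DMSO, of ZNF622 (-0.4057), ZNF506 (-0.3583), ZNF432 (-0.3019), ZNF469 (-0.2986) and ZNF503 (-0.1346) in NCS+MI-1061 against NCS, and of ZNF503 (0.04413) and ZNF622 (0.2905) in NCS+MD-224 against NCS+MI-1061. A further 21 named values, called under neither scaling, also turned sign. A fit of the compared groups alone gave 1 lower in MI-1061 against DMSO, 9 higher and 0 lower in MD-224 against DMSO, 2 higher in MD-224 against MI-1061, and 0 and 0 for the difference of the MD-224 responses. On the recovered reads of 9 libraries, edgeR gave 1 lower in MI-1061 against DMSO, 8 higher and 0 lower in MD-224 against DMSO and 2 higher in MD-224 against MI-1061; DESeq2 gave 0 lower and 2 higher in the last 2 of these, and edgeR on 18 libraries, added after the data were seen, 2 higher in the last. The replicate block gave 8 higher in NCS+MD-224 against NCS and 2 and 2 for the difference of the MD-224 responses, where the numbers did not pair the libraries. It gave 41 higher in MI-1061 against DMSO (2206 of the 3073 tested genes) and 18 higher in MD-224 against DMSO (1495). In NCS+MD-224 against NCS+MI-1061 it gave 36 lower (1883). The main fit did not use the replicate number. Among named values the block also called ZNF818P in MI-1061 against DMSO (log2 1.14, adjusted p = 0.0413), and it changed no other call than those given.

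With each library left out in turn, counts higher and lower ran from 14 to 17 and 0 to 0 in NCS against DMSO, 34 to 37 and 1 to 2 in MI-1061 against DMSO, 9 to 15 and 0 to 1 in MD-224 against DMSO, 41 to 43 and 0 to 0 in NCS+MI-1061 against NCS, 0 to 7 and 0 to 0 in NCS+MD-224 against NCS, 2 to 4 and 27 to 29 in MD-224 against MI-1061, 0 to 0 and 29 to 32 in NCS+MD-224 against NCS+MI-1061, 11 to 14 and 6 to 8 for the difference of the MI-1061 responses, and 0 to 2 and 0 to 2 for that of MD-224. The cause of these changes was not tested. The pseudocount, the filter and the mean of at least 50 left 144 of 147, 147 of 147 and 122 of 122 named values on their side of the threshold. Few reads limit several named genes. In DMSO, ZNF366 had 2, 4 and 2 reads, ZNF610 2, 6 and 2, and ZNF843 10, 18 and 6. ZNF812 had 6, 24 and 20 reads in NCS, and ZNF630 had 6, 12 and 6 in MI-1061.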
